A study of Mus musculus with 2 samples.

Results

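Binding of the transcription factor USF1 at 10 genes of glucose uptake and glycolysis was examined in CH12.LX cells, an immortalized line that came from a B-cell lymphoma of a B10.H-2aH-4bp/Wts mouse. The genes were Slc2a1, Hk1, Hk2, Pfkl, Aldoa, Tpi1, Eno1, Eno2, Pkm and Ldha, chosen by symbol for their place in the pathway with earlier results of these data known, and they are 10 of the 21318 protein-coding genes that could be assessed in mm10. For each gene, every region was taken whose summit lay inside the gene or within 5 kb of one of its annotated 5′ ends. USF1 ChIP-seq, which sequences the chromatin that an antibody against USF1 pulls down, was performed on 2 biological replicates of 1 group, for which the labels name no treatment or genetic change, and control libraries were not used here. The design therefore allows a comparison between replicates, between lists and between genes, and no test between conditions. Expression was not measured, so neither the B-cell identity of the line nor the activity of these genes was assessed here.

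The authors deposited an optimal list of 8108 regions and a conservative list of 7356 in mm10, each cut by IDR, a measure of how well the ordering of regions repeats. Relaxed lists, which also hold background, had 25978 regions in replicate 1, 44551 in replicate 2 and 300000 for both replicates together. A separate list in mm9 had 10624 peaks. Signal is the authors' own value for a region, and its scale is not given. At the optimal regions found in both replicates, the signal in the list of both replicates was a median of 1.00 times the sum of the 2 replicate values, so replicate values lie on a lower scale than joint ones. Read depth is unknown.

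Glycolysis splits glucose into pyruvate. GLUT1 brings glucose into the cell, hexokinase traps it as glucose 6-phosphate, phosphofructokinase commits it to the pathway, aldolase and triose phosphate isomerase handle the split sugar, enolase and pyruvate kinase make pyruvate, and lactate dehydrogenase reduces pyruvate to lactate. Proliferating lymphocytes and lymphoma cells are known for high glucose use, and MYC and HIF-1 are known activators of many of these genes. USF1 binds the palindromic E-box CACGTG, a site that MYC with MAX and the glucose-responsive MLX partners also recognise, and the hypoxia site core ACGTG lies within the same letters.

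The DNA under the summits is shown for the mm9 peaks of these genes that hold CACGTG or CACATG within 50 bp. The 2 of the 9 peaks with neither, that of Pfkl and the Hk2 peak 258 bp upstream of the 5′ end, are not shown. Windows reach 50 bp on each side of the mm9 summit and are written on the gene's strand, with CACGTG, and CACATG or its complement CATGTG, in capitals. For Eno2, whose summit lies in an exon, 30 bases around the E-box are given.
Hk2, intron 7, mm9 chr6:82690332-82690432, minus strand: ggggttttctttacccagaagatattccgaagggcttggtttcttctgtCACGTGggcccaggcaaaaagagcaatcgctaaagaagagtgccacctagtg
Hk2, intron 1, mm9 chr6:82723531-82723631, minus strand: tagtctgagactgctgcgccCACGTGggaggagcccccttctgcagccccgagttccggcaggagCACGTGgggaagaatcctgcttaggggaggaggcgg
Tpi1, intron 1, mm9 chr6:124763665-124763765, minus strand: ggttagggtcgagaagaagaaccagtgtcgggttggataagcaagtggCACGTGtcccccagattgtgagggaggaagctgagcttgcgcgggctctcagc
Eno2, untranslated exon, mm9 chr6:124719603-124719632, minus strand: gggcccccgggtCACATGcgccctcccggc
Pkm, intron 1, mm9 chr9:59505258-59505358, plus strand: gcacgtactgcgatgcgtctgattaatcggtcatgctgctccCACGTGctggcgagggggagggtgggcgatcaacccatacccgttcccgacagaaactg
Ldha, promoter, mm9 chr7:54101092-54101192, plus strand: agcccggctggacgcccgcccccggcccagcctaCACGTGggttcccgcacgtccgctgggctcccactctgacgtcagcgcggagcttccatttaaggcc
Hk1, intron, mm9 chr10:61783157-61783257, minus strand: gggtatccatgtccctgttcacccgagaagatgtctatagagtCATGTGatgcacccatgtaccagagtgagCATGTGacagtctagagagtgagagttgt

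Of the 10 genes, 4 had an optimal summit within 1 kb of a 5′ end (Hk2, Tpi1, Eno2 and Ldha), against 12.6% of all protein-coding genes. The same 4 met the wider limit of 5 kb or inside the gene, against 22.7% of all genes. With 10 genes, the 95% Wilson interval of the share was 16.8% to 68.7%, which covers counting error only. The background of the wider limit lies inside this interval and that of 1 kb below it. This is no test of the share, because the 10 genes were not drawn at random. The share is a description, since earlier results were known when the genes were chosen. The 4 genes held 5 optimal regions, and all 5 stood in the conservative list with the same bounds. Most optimal regions can stand there, since that list holds 7356 regions against 8108. By gene, the same 4 of the 10 met both limits in the conservative list. Of all genes, 11.8% had a conservative summit within 1 kb and 21.4% met the wider limit. All 5 were also found in each replicate's own list, as were 8054 of all 8108 optimal regions. No start of another protein-coding gene lay within 1 kb of any of the 5, and within 5 kb the start of Spsb2 lay near the Tpi1 region.

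Ldha, which encodes the A subunit of lactate dehydrogenase, had the strongest promoter region of the 10 genes in the joint list and in replicate 2, while in replicate 1 that of Eno2 was stronger, at 72.2. The optimal region lay on chromosome 7 at 46845613 to 46845912 (mm10), with its summit 41 bp upstream of a 5′ end that RefSeq places at 46845804. RefSeq lists other 5′ ends of Ldha at 46842274 and 46847082, from which the summit lay 3489 bp downstream and 1319 bp upstream. Signal was 60.3 in replicate 1 and 86.0 in replicate 2 (mean 73.2 ± 18.2, SD, n = 2), and 147.8 in the optimal list. Ldha thus ranked 2107 of 8108, with 74.0% of optimal regions weaker. Each replicate's own summit lay within 3 bp of the joint one.

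The 250 bases before that 5′ end hold 2 copies of CACGTG, shown in capitals in the RefSeq sequence. They begin 145 and 48 bp before the start, and the summit lies next to the nearer one.
Ldha, GRCm38.p6 chr7:46845554-46845803, plus strand: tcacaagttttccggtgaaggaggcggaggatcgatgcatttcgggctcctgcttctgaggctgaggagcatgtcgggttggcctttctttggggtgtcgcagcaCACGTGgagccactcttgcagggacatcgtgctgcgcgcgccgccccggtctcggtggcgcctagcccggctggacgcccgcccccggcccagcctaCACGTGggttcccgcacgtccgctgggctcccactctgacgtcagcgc
In mm9 the same copy lay 13.5 bp from a summit with a signal of 186.5, and the farther copy lay 110.5 bp away. Both copies read ACACGTGG, a form found nearest the summit at 6.33% of the 5658 mm9 peaks with CACGTG, whose peaks had a median signal of 62.0. Among the 17 RefSeq promoter windows of 300 bases that matched the 10 genes, 1 held CACGTG, that of Ldha, against 7.15% of all 32851 windows. None of the 17 held a pair of CACGTG separated by 5 bases, the form of a carbohydrate response element with both boxes canonical, and none of all 32851 did.

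Hexokinases carry out the first step. Hk2, the insulin- and growth-responsive isozyme, held the strongest region of the 10 genes, and it lay deep in the gene. That optimal region stood on chromosome 6 at 82740265 to 82740512 (mm10), 34061 bp downstream of the single 5′ end. Its signal was 231 in replicate 1 and 261 in replicate 2 (mean 246 ± 20.9, SD, n = 2), and 490 in the optimal list. It ranked 306 of 8108, above 96.2% of optimal regions. Of 2303 optimal regions inside a gene and over 5 kb from every 5′ end, 12 including this one had at least its signal, where the median was 64.3. In mm9, where the annotation gives exons, the summit lay in intron 7 of 17, with a signal of 1353 and rank 345 of 10624. CACGTG lay 1.5 bp from the summit and read TCACGTGG on the gene's strand. Its complement CCACGTGA was the most frequent form at mm9 summits, at 27.8% of CACGTG peaks, with a median signal of 99.6.

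A weaker Hk2 region lay in intron 1, 867 bp downstream of the 5′ end, on chromosome 6 at 82773437 to 82773736 (mm10). Its signal was 36.1 in replicate 1 and 37.7 in replicate 2 (mean 36.9 ± 1.08, SD, n = 2), and 73.4 in the optimal list, rank 3987. The replicates differed least here among the 5 regions. The mm9 peak at the same distance from the 5′ end had a signal of 88.1 and 2 copies of CACGTG, 27.5 bp upstream and 17.5 bp downstream of the summit. A further mm9 peak of Hk2, 258 bp upstream of the 5′ end, had a signal of 29.6 and neither E-box within 50 bp. The optimal list held no second region within 1 kb of the 5′ end.

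Hk1, the broadly expressed hexokinase, spans 62268855 to 62379920 on chromosome 10 (mm10) and had no optimal region by the same limits. In mm10 its strongest relaxed region near a start had a signal of 19.1 in the joint list, with 11.7 in replicate 2 and no region in replicate 1. A further relaxed region 19962 bp inside the gene from the nearest start reached 26.1, with 11.9 in replicate 1 and 15.4 in replicate 2. In mm9, Hk1 had a peak 59449 bp downstream of the gene's 5′ end in Gencode. This peak and the mm10 region at 26.1 lay at the same distance from the gene's 3′ end. Both therefore mark the same place, measured from different starts. The mm9 peak had a signal of 33.5 and no CACGTG within 50 bp. It held 2 copies of CACATG, at 4.5 bp and 24.5 bp from the summit. A copy of CACGTG lay farther off in the peak, 120.5 bp upstream of the summit. Hk1 and its flanks carried 35 copies of CACGTG, and 0 of them lay within 50 bp of a peak summit. Hk2 carried 13 copies and 3 did, 2 of them in the intron 1 peak. Over all protein-coding genes, 15.5% of copies within 1 kb of a start and 1.75% of copies in other parts of genes did. The genes differ in length, 111054 bp for Hk1 and 49430 bp for Hk2 in mm9.

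Enolases make phosphoenolpyruvate, and here too the isozymes differed in the lists. Eno2, known as the neuron-specific enolase, had an optimal region on chromosome 6 at 124769466 to 124769765 (mm10), 57 bp downstream of its 5′ end. Its signal was 72.2 in replicate 1 and 54.2 in replicate 2 (mean 63.2 ± 12.7, SD, n = 2), and 125 in the optimal list, rank 2493. The mm9 summit, with a signal of 165.4, lay in an untranslated exon. It had no CACGTG within 500 bp, and CACATG lay 15.5 bp downstream of it. Among mm9 peaks with CACATG alone the median signal was 57.2, and Eno2 lay above it. Of the 4 peaks of these genes without CACGTG within 50 bp, Eno2 had the highest signal, the others lying between 29.6 and 33.5.

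Eno1, the broadly expressed enolase at 150236708 to 150248879 on chromosome 4 (mm10), had no optimal region and no mm9 peak. Its strongest relaxed region within 1 kb of a 5′ end had a signal of 10.5 in the joint list and 9.23 in replicate 2, with none in replicate 1. A relaxed region inside the gene, 1692 bp downstream of the nearest 5′ end, reached 16.3, again with a replicate 2 region alone, at 10.02. In mm9, 2 copies of CACGTG lay within 1 kb of an annotated Eno1 start, 0 of them within 50 bp of a summit. Within 1 kb of a start, the Eno2 signals of 72.2 in replicate 1 and 54.2 in replicate 2 both lay above the 9.23 of Eno1 in replicate 2.

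Tpi1, which interconverts the 2 triose phosphates, had an optimal region in its first intron, on chromosome 6 at 124813555 to 124813854 (mm10), 453 bp downstream of the 5′ end. Its signal was 50.1 in replicate 1 and 25.5 in replicate 2 (mean 37.8 ± 17.4, SD, n = 2), and 73.6 in the optimal list, rank 3975. The log2 ratio of replicate 2 over replicate 1 was -0.98, where the median over 8054 optimal regions was 0.18 with an SD of 0.50 and the 5th percentile was -0.67. The replicates thus differed more at Tpi1 than at most regions, with replicate 1 higher. The ratio was 0.17 and 0.06 at the Hk2 regions, -0.41 at Eno2 and 0.51 at Ldha. In mm9 a copy of CACGTG lay 0.5 bp from the summit, with a signal of 91.5. It read GCACGTGT, whose complement ACACGTGC was found at 1.82% of CACGTG peaks and had a median signal of 49.6, the lowest of the 10 forms.

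**Figure D1:**
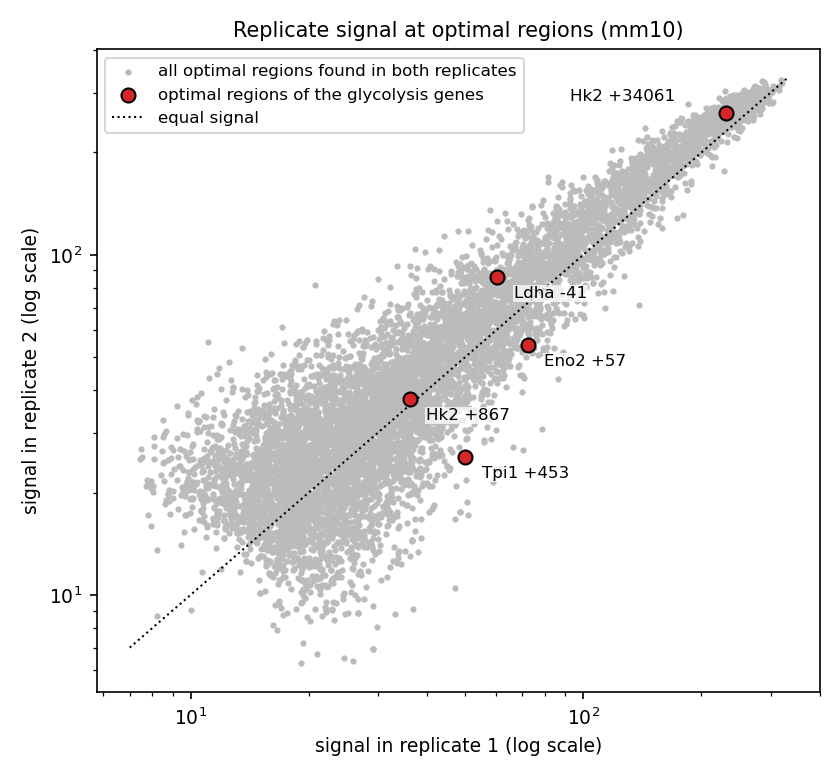
Signal of each optimal mm10 region in replicate 1 (x, log scale) and replicate 2 (y, log scale) for 8054 regions found in both; red points are the 5 regions of the glycolysis genes, named with the distance in bp of the summit from the nearest 5′ end. Tpi1 and Eno2 lie below the line of equal signal, Ldha above it, and the Hk2 intron 7 region near the top of the range.

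Pkm and Pfkl had no optimal region, though their joint signals lay in a range where some regions were in that list and others were not. Pkm encodes the muscle-type pyruvate kinase with its M1 and M2 splice forms, and Pfkl the liver-type phosphofructokinase. Pkm had a relaxed region 274 bp downstream of a 5′ end, on chromosome 9 at 59657351 to 59657650 (mm10), with 24.3 in replicate 1, 13.1 in replicate 2 and 37.2 jointly. Its joint rank was 7560, and 63.6% of the 1000 relaxed regions with joint signal between 34.9 and 40.4 overlapped an optimal region. Its replicate ranks were 5588 and 11823. Pfkl, at 77986947 to 78009807 on chromosome 10 (mm10), had a relaxed region 385 bp downstream of its 5′ end, with 19.1 in replicate 1, 14.5 in replicate 2 and 32.5 jointly, at joint rank 8558. Of the 1000 relaxed regions between 31.0 and 34.9, 44.3% did.

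Both genes had a peak in the mm9 list, Pkm at 38.8 and Pfkl at 31.7. The Pkm peak lay in intron 1, 925 bp downstream of the first 5′ end. The mm10 region of Pkm, measured above from a later 5′ end, lay at the same distance from the first. Both therefore mark the same place. The mm9 peak of Pkm had CACGTG 5.5 bp from the summit. The Pfkl peak had neither E-box within 50 bp, but a copy of CACGTG lay 63.5 bp away and the window held 2 GC boxes (GGGCGG), the sites of SP and KLF factors. With each replicate's own 8108 strongest regions in place of the optimal list, Pkm and Pfkl were bound within 1 kb in replicate 1, which gave 6 of the 10 genes against 12.6% of all genes, and 6 by the wider limit against 22.9%. In replicate 2 neither was, and the count was 4 against 13.0% of all genes, and 4 by the wider limit against 23.2%.

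Slc2a1 and Aldoa had no region in the optimal, conservative or mm9 lists. Slc2a1, which encodes the glucose transporter GLUT1 and spans 119108745 to 119137330 on chromosome 4 (mm10), had a relaxed region 13 bp from its 5′ end with 14.5 in replicate 1, 8.10 in replicate 2 and 22.5 jointly, at joint rank 12479. In the mm9 sequence, 0 copies of CACGTG lay within 1 kb of a start of Slc2a1, and 3 lay in the gene and its flanks. Aldoa, which encodes the aldolase of muscle and most other tissues and spans 126795234 to 126800994 on chromosome 7 (mm10), had a relaxed region 43 bp from a 5′ end with 8.79 in replicate 1, 7.08 in replicate 2 and 15.7 jointly, at joint rank 19909. Its 2 copies of CACGTG lay within 1 kb of an annotated start and not at a peak. A relaxed region within 1 kb was itself common, at 25.7% of all genes in replicate 1 and 36.7% in replicate 2, and was present at 8 and 10 of the 10 genes. Of the 1000 relaxed regions with joint signal between 23.4 and 25.4, above both genes, 7 overlapped an optimal region.

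**Figure D2:**
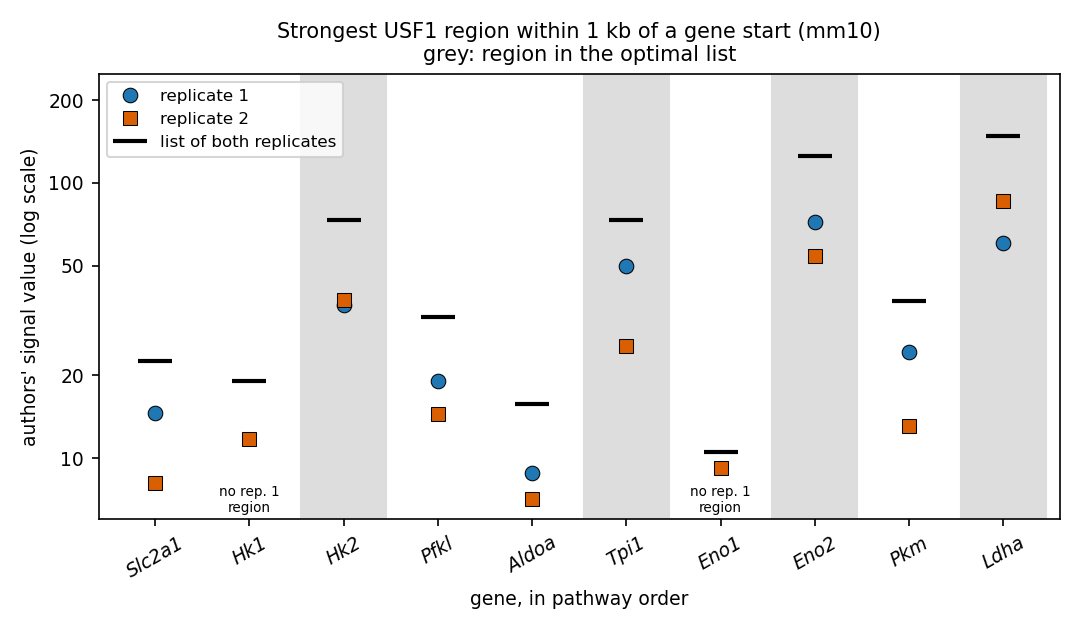
Strongest USF1 region within 1 kb of an annotated 5′ end of each gene in mm10, with the authors' signal (y, log scale) in replicate 1 (circles), replicate 2 (squares) and the joint list (black dashes). The 4 genes on grey have this region in the optimal list, with joint signal from 73.4 to 147.8, and the other 6 lie between 10.5 and 37.2.

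By joint signal within 1 kb of a start, the order was Ldha, Eno2, Tpi1, Hk2, Pkm, Pfkl, Slc2a1, Hk1, Aldoa and Eno1. Tpi1 and Hk2 did not differ beyond their spread, since the Tpi1 values of 50.1 and 25.5 enclose the Hk2 values of 36.1 and 37.7. Ldha and Eno2 overlapped too, the Ldha values of 60.3 and 86.0 enclosing 72.2 of Eno2. Among the 2684 genes with an optimal region within 1 kb, the median of the strongest such signal was 130.8, and the middle 50% spanned 59.0 to 347.6. Ldha lay above 52.8% of these genes, Eno2 above 48.8%, Tpi1 above 33.7% and Hk2 above 33.6%. All 4 lay inside that middle range.

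In mm9, 6 of the 10 genes had a summit within 1 kb of an annotated transcript start, against 14.9% of all genes. By the wider limit 7 had one, against 26.2% of all genes, and these 7 genes held 9 peaks. Of the 9 peaks, 5 had CACGTG within 50 bp (55.6%), 2 had CACATG alone and 2 had neither, against 53.3%, 30.1% and 16.6% of all mm9 peaks. The copy nearest the summit lay at most 17.5 bp away in each of the 5. CACGTG stood in 4 of the 5 peaks in the stronger 50% of the mm9 list, Eno2 being the fifth. The share over all peaks in that stronger part was not computed. Over all mm9 peaks those with CACGTG were also stronger, with a median signal of 75.5. The median was 57.2 with CACATG alone and 47.1 with neither.

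Most E-boxes at these genes carried no peak. The 10 genes with flanks of 5 kb held 73 copies of CACGTG, and 6 of them (8.22%) lay within 50 bp of a summit. Of the 26 copies within 1 kb of an annotated start, 5 (19.2%) did, against 15.5% of the 12730 copies near the starts of all protein-coding genes. The remaining bound copy was that of Hk2 intron 7, and of all 110072 copies in other parts of genes 1.75% lay at a summit. All 26 copies near starts belonged to 8 genes, as Slc2a1 and Eno2 had none. Of 334 copies of CACATG, 3 lay at a summit. The copy in the Eno2 peak was 1 of 43 within 1 kb of a start (2.33%), against 0.984% of 58252 such copies over all protein-coding genes. The other 2 lay in the Hk1 peak, and of all 949017 copies in other parts of genes 0.203% lay at a summit.

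**Figure D3:**
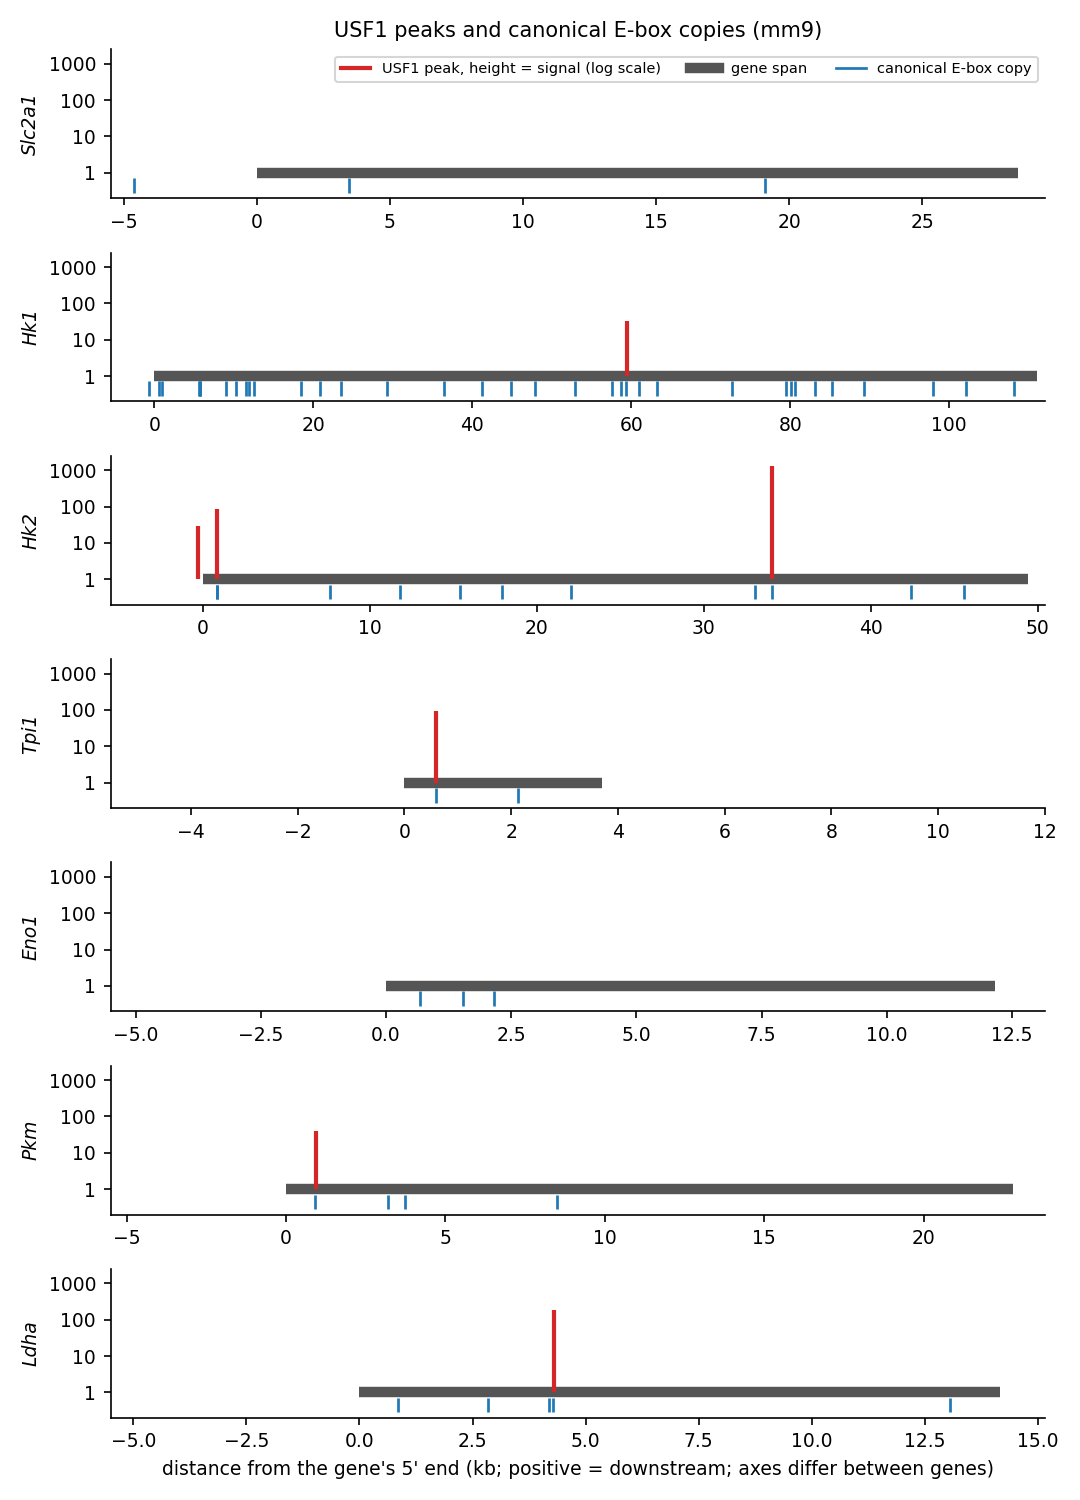
USF1 peaks of the mm9 list (red, height gives the authors' signal on a log scale), gene span (grey) and every canonical E-box copy (blue) against distance from the gene's 5′ end in kb for 7 of the 10 genes. Hk1 has 35 E-box copies and 1 peak, whose summit has none of them within 50 bp. Hk2 has 13 copies and 3 peaks, of which the tallest, at 1353, and the one in intron 1 lie on copies.

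The promoters themselves were of mixed base composition. The ratio of observed to expected CpG in the 17 RefSeq windows of 300 bases ranged from 0 to 1.03 with a median of 0.676, against a median of 0.384 over all 32851 windows. The window of Hk1 at 62379908, with 0.0507, and that of Aldoa at 126800447, with 0, were poor in CpG. GC boxes stood in 10 of the 17 windows, belonging to 8 genes, against 35.7% of all windows. The core ACGTG stood in 7 windows of 6 genes, against 19.6% of all, and the core GCGTG in 8 windows of 5 genes, against 32.4%. Windows of 1 gene overlap where its starts are close, so they are not independent. CpG content was not matched, and its part in the counts was not tested.

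Other genes of the pathway were taken from a list of 37, written with earlier results of these data known, of other isozymes, glucose transporters, regulators, and pyruvate and lactate handling. Of these, 5 (13.5%) had an optimal summit within 1 kb, near the 12.6% of all genes, and 6 more met the wider limit, making 11 (29.7%) against 22.7%. The remaining 26 had none. Pfkfb2, a bifunctional enzyme that sets fructose 2,6-bisphosphate, had a region 31 bp upstream of a 5′ end with 225.8 in replicate 1, 260.6 in replicate 2 and 486 in the optimal list. Bsg, which encodes basigin, the partner that lactate transporters need at the cell surface, had 227.6 and 257.1 in the replicates and 482 in the optimal list. Slc16a1, which encodes the lactate transporter MCT1, had 118.1 and 204 in the replicates and 319 in the optimal list, with a second region at 47.6.

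These 3 promoter regions were stronger than each of the 4 promoter regions of the 10 genes, in both replicates. Gapdh had a region 797 bp downstream of a 5′ end with 55.5 in replicate 1, 97.6 in replicate 2 and 155 in the optimal list, near the value of Ldha. Pfkfb3, another fructose 2,6-bisphosphate enzyme, had 15.8 and 16.6 in the replicates and 31.2 in the optimal list. In mm9, 7 of the 37 genes of the list had a peak within 1 kb of a start, against 14.9% of all genes. The strongest such peak had CACGTG within 50 bp of the summit at 5 of these 7, Pfkfb2, Bsg, Slc16a1, Gapdh and Pfkfb3. Of all mm9 peaks, 53.3% had it. Slc2a3, a neuronal-type glucose transporter gene, had CACATG alone at a signal of 47.6, and Pgam1, a phosphoglycerate mutase gene, had neither at 34.1. Among other phosphofructokinase, enolase and hexokinase isozymes, Pfkp had 2 optimal regions inside the gene, at 118.5 and 64.0, Eno3 had 3 within the wider limit, at 84.9, 68.3 and 33.1, and Hkdc1 had 1, at 50.7. The strongest region of Eno3 lay within 1 kb of the start of Pfn1.

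**Figure D4:**
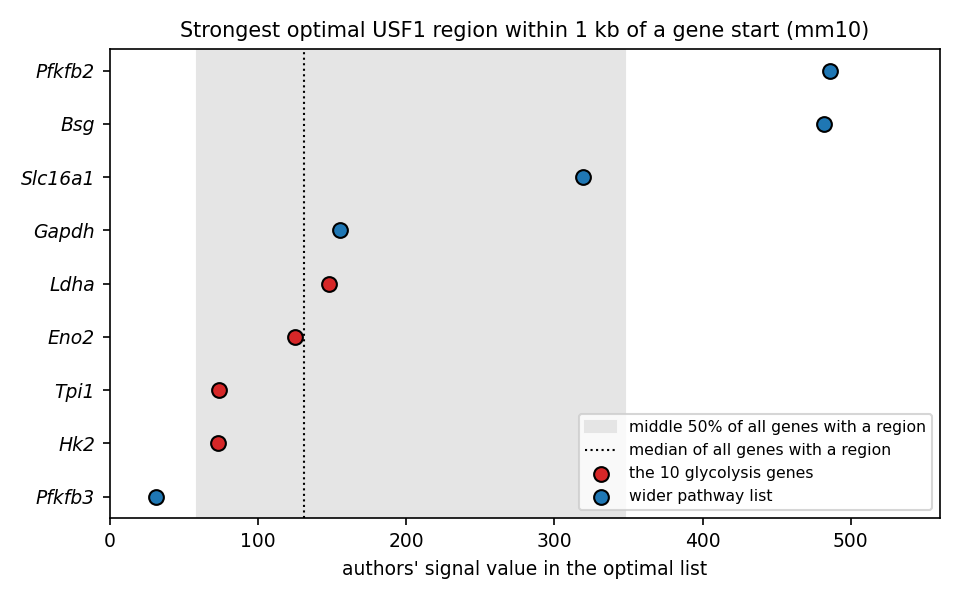
Strongest optimal region within 1 kb of a 5′ end for the 4 of the 10 glycolysis genes (red) and the 5 genes of the wider list (blue) that have one, with the authors' signal on the x axis. Pfkfb2 and Bsg, at 486 and 482, lie right of the grey band that holds the middle 50% of all bound genes, and Ldha, at 147.8, lies just right of the dotted median.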

How the data were processed

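The deposited narrowPeak lists give 1 signal value per region (column 7), made by the authors on a scale that is not given; per the deposited readme files, the mm10 lists came from mm10 alignments and the mm9 list from both replicates' mm9 alignments. Neither peak caller nor aligner is named, and read depth is unknown. Summits are the region start plus the deposited offset. Coordinates are 1-based and none was converted between builds.

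Gene spans, 5′ ends and promoter sequences came from RefSeq GRCm38.p6, with strand from its promoter table for 17492 of 21900 protein-coding genes and from Gencode vM1 by symbol for 4044; 364 without strand were left out, as were genes on chromosomes without optimal regions. In mm9, Gencode vM1 transcripts and the NCBIM37 genome were used. Motifs were searched on both strands. Replicate signal is that of the strongest overlapping region (at least 1 bp). The 10 genes were given; they and all lists were chosen with earlier results of these data known. Every one of the 10 was named, and from the wider list each gene with an optimal summit within 1 kb; Pfkp, Eno3, Hkdc1, Slc2a3 and Pgam1 were named after their values were seen. With 2 replicates of 1 group no test was run. Functions were tested on simulated data. Python 3.11.15, pandas 2.3.3 and scipy 1.17.1 were used.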

Additional observations from a re-analysis of the deposited data

How the results depend on the processing

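The count of 4 genes within 1 kb of a 5′ end was 4 with the conservative list, the strongest 50% of the optimal list, region midpoints, 2 kb and 5 kb. It was 3 at 500 bp, where Hk2, with a single RefSeq 5′ end, was not counted. Of all genes, 16.7% had an optimal summit within 5 kb of a 5′ end. The shares of all genes at 500 bp, 2 kb and 10 kb, with midpoints, and with the strongest 50% were not computed. Leaving out a replicate gave 4 to 6 genes by either limit, the higher count without replicate 2. The mm9 list gave 6 genes within 1 kb and 7 by the wider limit, which in mm10 was 4; Hk1, Pfkl and Pkm were the additions, and list, build and annotation differ together there. At 10 kb Hk1 was also counted, through a region inside Hkdc1. CACGTG was found in 5 of 9 mm9 peaks within 25 bp and in 6 within 100 bp, Pfkl being the addition. Within 50 bp it stood in 4 of the 5 peaks in the stronger 50% of the list. The shares of all mm9 peaks at these settings were not computed. All 5 regions also overlapped both replicates by at least 50% of their length. Replicate signal lies on a lower scale than the joint value. It ranged from 231 to 261 against 490 at Hk2 intron 7, 36.1 to 37.7 against 73.4 at Hk2 intron 1, 25.5 to 50.1 against 73.6 at Tpi1, 54.2 to 72.2 against 125 at Eno2, and 60.3 to 86.0 against 147.8 at Ldha. No paired analysis was possible because there is 1 group. Signal from lists cannot show absence of binding at the other 6 genes, since read depth is unknown.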
